A study of Homo sapiens with 18 samples.

Results

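The mitochondrial ribosomal protein genes are the nuclear genes named MRPL, for the large subunit of the mitochondrial ribosome, and MRPS, for the small subunit. They were chosen by symbol alone, as every row of the expression table whose symbol was MRPL or MRPS followed by a number and at most 1 further letter. This gave 72 of the 12853 genes in the table, of which 44 were MRPL and 28 were MRPS genes. Ribosomal genes of this family that are not in the table were not analysed here, and the filter that left the listed genes is not given in the sources used here. RNA was sequenced from 6 human ovarian cancer cell lines with 3 libraries per line, 18 in all. The lines form 3 pairs of a platinum-sensitive line and a resistant counterpart, and the comparisons ask how expression differs between the lines of a pair. CP70 was derived from A2780 in culture, and the labels call both endometrial/ovarian. PEA1 and PEA2 came from ascites of 1 patient with high-grade serous ovarian cancer, PEA1 before platinum chemotherapy and PEA2 after a resistant relapse. PEO1 and PEO4 came from 1 patient with the same disease who had received platinum, PEO1 before and PEO4 after resistance developed. All lines were grown in the same medium, and no drug treatment is given for these libraries. Each line is a single cell line, so a difference within a pair is a difference between those 2 lines.

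The mitochondrial ribosome translates the few messenger RNAs encoded by mitochondrial DNA, all of which specify subunits of the respiratory chain and the ATP synthase. Its RNA is made inside the mitochondrion, but all of its proteins are encoded in the nucleus, translated in the cytosol and imported, so that genes scattered over most chromosomes have to supply 1 particle. Some of the proteins descend from bacterial ribosomal proteins, and others have no bacterial counterpart and were added in the mitochondrial lineage. The large subunit joins amino acids and holds the exit tunnel, the central protuberance and the stalk that receives translation factors, and the small subunit reads the message.

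Values are log2 CPM, that is reads relative to a scaled library size with 0.5 reads added, and log2FC is the resistant line minus the sensitive line. Tests are moderated limma statistics over all genes, and a gene is described as changed at an FDR below 0.05 (Benjamini-Hochberg over 12853 genes). Nothing in the labels says that the replicates are separate cultures, so these values measure the spread between libraries only. The libraries held between 1344098 and 7067336 reads on genes of the table, and the 3 PEA1 libraries were among those with the fewest. The 72 genes were well covered apart from a few: MRPS36 had 2 reads in 1 PEA1 library, and no gene of the family was at 3 reads or fewer in every library of a line. Of 8 epithelial and ovarian markers, 8 had more than 10 reads in every library of PEA2, of PEO1 and of PEO4, 4 in PEA1, 3 in CP70 and 0 in A2780, where EPCAM had 2 to 5 reads, KRT18 3, KRT8 0 to 2 and PAX8 0 in each library. Of 4 markers of immune, endothelial or stromal cells in the table, LUM and DCN passed it in CP70 and PTPRC and CDH5 in PEA2, and their part in the results below was not tested.

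Taken as 1 group, the genes made up a larger share of the reads in A2780 and CP70 than in the 4 serous lines. The share was 0.493% ± 0.0150 (SD, n = 3) in A2780, 0.470% ± 0.00376 in CP70, 0.367% ± 0.00623 in PEA1, 0.298% ± 0.00274 in PEA2, 0.333% ± 0.0131 in PEO1 and 0.326% ± 0.00563 in PEO4. The 6 libraries of the A2780 pair were all above the 12 others. By this share PEA2 was the lowest line, and its libraries did not overlap those of PEA1, while the libraries of PEO1 and PEO4 overlapped. The order of the serous lines depended on the scaling: on the scaled library size, the summed CPM of the 72 genes ran from 3507 to 3641 in PEA1, from 3384 to 3505 in PEA2 and from 3183 to 3344 in PEO4, which was then the lowest line. On that scale PEA1 and PEA2 were nearly touching. In the PEA pair the MRPL genes went from between 0.224% and 0.228% to between 0.161% and 0.164%, and the MRPS genes from between 0.139% and 0.147% to between 0.135% and 0.137%. On the summed CPM the MRPS genes went the other way, from between 1341 and 1427 in PEA1 to between 1538 and 1597 in PEA2, so their direction flipped with the scaling. The MRPL genes were lower in PEA2 on both scales, and without MRPL28, the gene that fell most, their summed CPM went from between 1983 and 2037 to between 1828 and 1888. In bulk RNA, fewer cells with these transcripts and fewer transcripts per cell cannot be told apart.

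**Figure D1:**
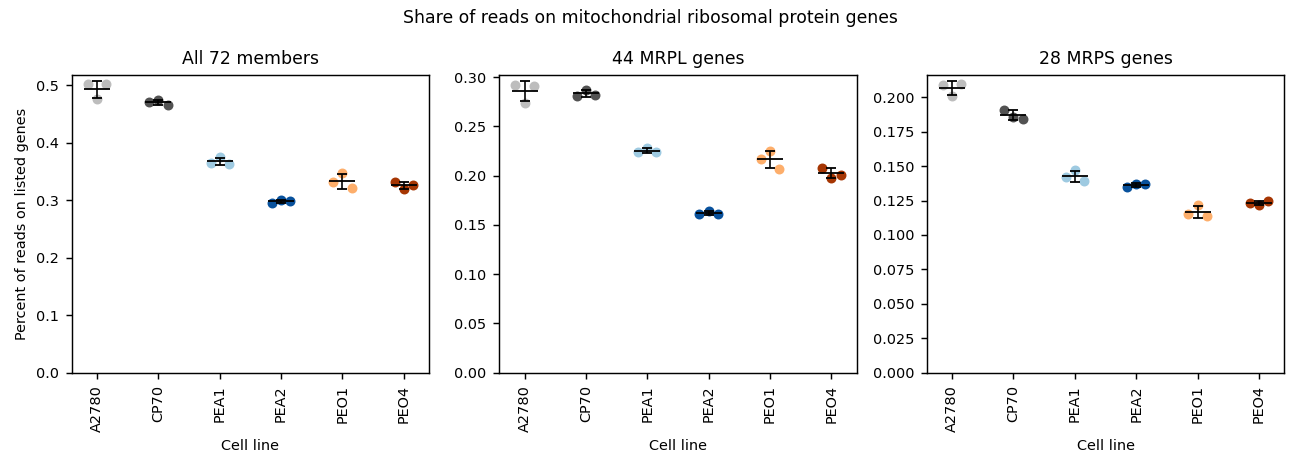
Percent of the reads on listed genes that fell on all 72 genes, on the 44 MRPL genes and on the 28 MRPS genes (vertical axis, from 0) for each cell line (horizontal axis). Points are the 3 libraries of a line, and the bar and whiskers are their mean and SD. A2780 lies at 0.493% and PEA2 at 0.298% for all 72 genes.

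The size of the differences between lines varied from gene to gene. Across the 6 line means, the difference between the highest and the lowest line had a median of 1.43 log2 units over the 72 genes, beside 1.88 for all genes and 1.52 for all genes with a mean log2 value above 4, as 65 of the 72 had. The median SD within a line was 0.15. A2780 was the highest line for 30 of the genes and CP70 for 15, and the lowest line was PEO4 for 19 and PEA1, PEA2 or PEO1 for 16 each. A2780 was the lowest line for 2 genes and CP70 for 3, so most of the family shared a higher level in the A2780 pair. MRPL45, which anchors the ribosome at the inner membrane near the tunnel exit, had the narrowest range of line means (0.31), followed by MRPS22 (0.36) and MRPL52 (0.48). The widest ranges were those of MRPS6 (4.25), MRPL28 (3.20) and MRPL41 (2.48). Per kilobase of the annotated transcript, the highest mean levels over all libraries were those of MRPS15 (6.67 log2 CPM per kilobase), MRPL37 (6.56) and MRPL20 (6.55). The lowest were MRPS17 (2.09), MRPS36 (2.55) and MRPS18C (2.56). MRPS36 was named as a ribosomal protein and was later assigned to the 2-oxoglutarate dehydrogenase complex, so its place in the list rests on its symbol.

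**Figure D2:**
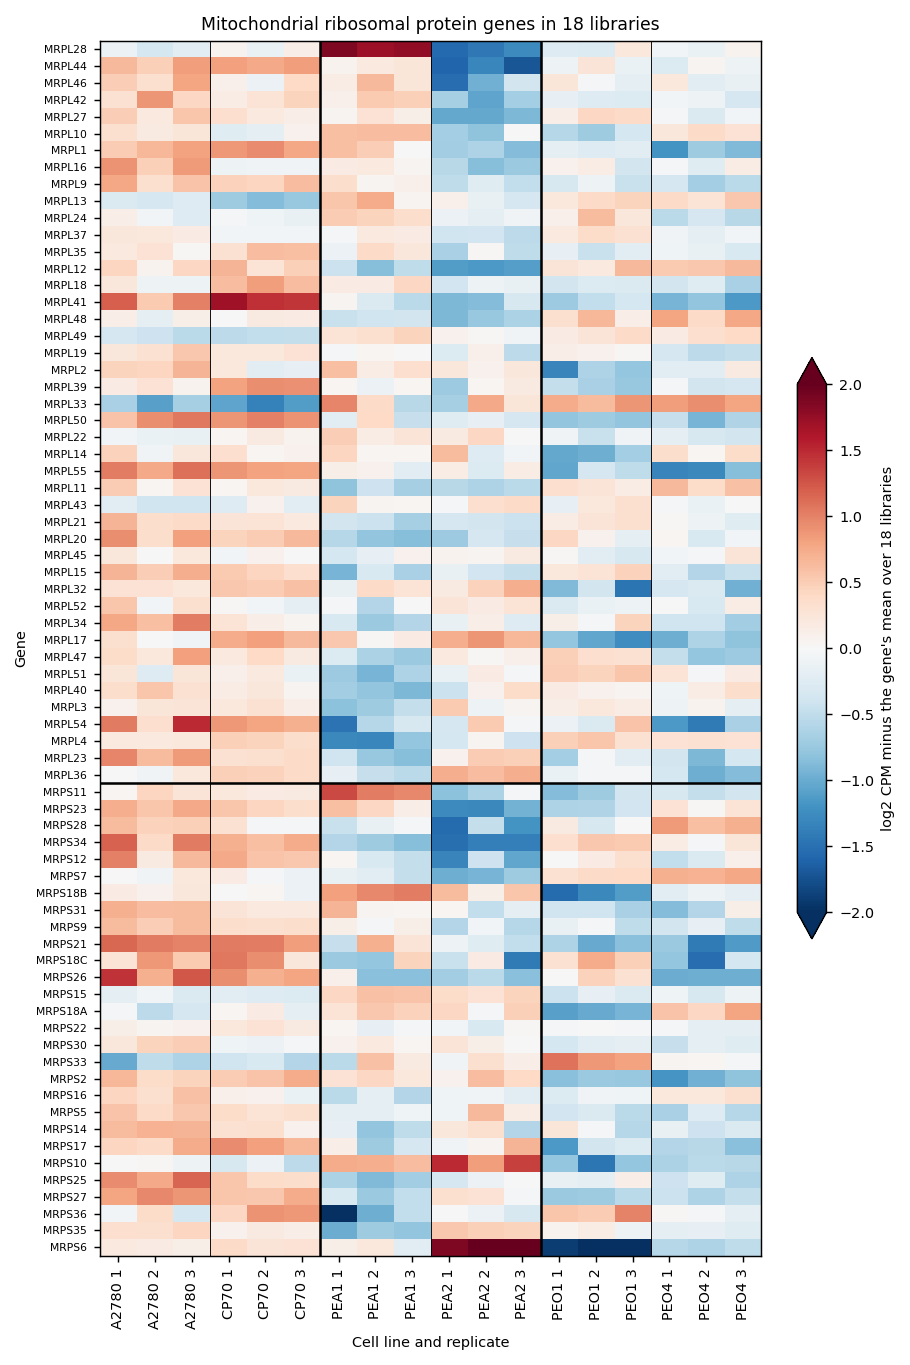
Log2 CPM of each of the 72 genes (rows) in the 18 libraries (columns), with the mean of the gene over all libraries subtracted (colour, red above and blue below, saturated at 2 log2 units). MRPL genes stand above the heavy horizontal line and MRPS genes below it, each ordered by the difference between PEA2 and PEA1. MRPL28 is red in PEA1 and blue in PEA2, and MRPS6 is red in PEA2 and blue in PEO1.

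Between A2780 and CP70, few of these genes changed. MRPL39, MRPL18, MRPL17 and MRPL41 rose in CP70 and 8 genes fell, with MRPL16, MRPL34 and MRPL2 furthest. The 4 that rose compare with 22.2% of all genes, and the 8 that fell with 17.7%, so the family held 5.56% and 11.1% where the table held more. The median log2FC of the 72 genes was -0.12, beside -0.02 for all genes. None passed an absolute log2FC of 2, a 4-fold difference, with the FDR, as 9.06% of all genes did. The range was -0.82 to 0.74.

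MRPL16 is a large subunit protein of bacterial descent. Its 3 libraries were at 6.66, 6.23 and 6.61 in A2780 and at 5.66, 5.69 and 5.69 in CP70. The 2 lines did not overlap, and the difference was -0.82 ± 0.15 (SE, FDR = 0.000133, limma), or 1.76-fold lower in CP70. MRPL34, a very small protein of the large subunit, was at 5.23, 5.06 and 5.49 in A2780 and at 4.73, 4.59 and 4.51 in CP70, again without overlap (log2FC -0.65 ± 0.18, FDR = 0.00773, limma). MRPL39, which has no bacterial counterpart and sits near the tunnel exit, went the other way, from 5.33, 5.45 and 5.24 to 5.97, 6.09 and 6.08 (0.71 ± 0.18, FDR = 0.00367, limma). MRPL17, also at the tunnel exit, rose by 0.65, and MRPL18, in the central protuberance, by 0.68. Of the small subunit genes, MRPS25, MRPS30 and MRPS16 fell by 0.53, 0.46 and 0.43, and none rose. Leaving out 1 library ended some of these calls: MRPL2 without A2780 replicate 3 (FDR = 0.0926, limma) or CP70 replicate 2 or 3 (0.0974 and 0.0795), MRPL41 without A2780 replicate 2 (0.129) or CP70 replicate 1 (0.0944), MRPL13 without CP70 replicate 2 (0.0555) and MRPS25 without A2780 replicate 3 (0.0530). Counts of genes that fell ran from 5, without CP70 replicate 2, to 11, without A2780 replicate 2.

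Between PEA1 and PEA2 most of the family changed, and in both directions. In PEA2, 19 genes rose, led by MRPS6 and MRPS35, and 24 fell, led by MRPL28, MRPL44, MRPS11 and MRPS23. Of all genes, 32.5% rose and 29.4% fell in this pair, so 26.4% and 33.3% of the family stood near those shares. The median log2FC was -0.15 beside 0.01 for all genes, and the values ran from -3.20 to 2.13. MRPL28 and MRPS6 passed an absolute log2FC of 2 with the FDR, which is 2.78% of the family beside 14.1% of all genes. The median over all genes was 4.91 to 4.95 in the PEA1 libraries and 5.01 to 5.06 in those of PEA2. Centring each library on its median and quantile normalization each gave 14 genes that rose and 29 that fell.

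MRPL28, a large subunit protein of bacterial descent, had the largest difference in the family. Its libraries were at 7.62, 7.46 and 7.52 in PEA1 and at 4.20, 4.32 and 4.47 in PEA2. The PEA1 values were the highest of any line and the PEA2 values the lowest, while the A2780, CP70, PEO1 and PEO4 libraries lay between 5.40 and 5.96. The difference was -3.20 ± 0.13 (FDR = 1.40e-13, limma), or 9.20-fold lower in PEA2. MRPL28 overlaps TMEM8A (named PGAP6 in the annotation) on the same strand, and TMEM8A also fell in PEA2 (log2FC -1.46, FDR = 1.13e-08, limma). How the counting treated reads where the genes overlap is not given in the sources used here, so either value may be affected.

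MRPS6, which binds at the platform of the small subunit, was at 5.59, 5.69 and 5.24 in PEA1 and at 7.34, 7.73 and 7.83 in PEA2. No library of another line reached the PEA2 values, and the difference was 2.13 ± 0.14 (FDR = 1.14e-10, limma), or 4.37-fold higher. It was 1.99 without PEA1 replicate 3, which left MRPL28 as the 1 gene past an absolute log2FC of 2. MRPS6 overlaps SLC5A3, a myo-inositol transporter gene, on the same strand in the annotation, and SLC5A3 was not analysed here. MRPS35, a small subunit protein without a bacterial counterpart, rose from 5.68, 5.96 and 5.87 to 7.21, 7.15 and 7.11 (log2FC 1.32 ± 0.09, FDR = 2.14e-10, limma), and PEA1 was its lowest line.

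MRPL44, whose protein has the fold of a ribonuclease and lies near the tunnel exit, was at 5.53, 5.65 and 5.70 in PEA1 and at 3.87, 4.15 and 3.75 in PEA2. All 3 PEA2 libraries were below every other library (log2FC -1.70 ± 0.14, FDR = 3.08e-09, limma). MRPS23, a small subunit protein without a bacterial counterpart, fell from 5.89, 5.71 and 5.42 to 4.02, 4.0 and 4.35 (-1.55 ± 0.14, FDR = 1.57e-08, limma). MRPL36, a zinc-binding protein that is among the smallest of the large subunit, rose by 1.08 and MRPL23, at the tunnel exit, by 1.03. MRPS36 rose by 1.04 ± 0.34, with PEA1 libraries at 0.86, 1.97 and 2.45 and PEA2 libraries at 2.95, 2.82 and 2.63. These rest on few reads, and without PEA1 replicate 1 the difference was 0.59 (FDR = 0.0945, limma).

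MRPS11 and MRPL46 fell together in PEA2. They are neighbours on chromosome 15 and run in opposite directions from a shared start region, MRPS11 being a small subunit protein of bacterial descent and MRPL46 a protein of the central protuberance. MRPS11 was at 5.96, 5.65 and 5.59 in PEA1 and at 3.82, 4.0 and 4.59 in PEA2, without overlap (log2FC -1.60 ± 0.19, FDR = 5.83e-07, limma). MRPL46 was at 3.67, 4.18 and 3.76 in PEA1 and at 2.00, 2.56 and 3.16 in PEA2 (-1.30 ± 0.28, FDR = 0.000448, limma). Neither passed the test in CP70 or PEO4, where MRPS11 had log2FC values of -0.06 and 0.26 and MRPL46 of -0.41 and -0.06. Among the 7 other tested genes within 1 Mb of both, 4 fell and 2 rose in PEA2, with a median log2FC of -0.95. Whether the fall of MRPS11 and MRPL46 is tied to their shared start was not tested. The annotated spans of the 2 genes leave 62 bases between them, at chr15:89010622-89010683 on GRCh37, and the starts of their main transcripts lie 320 bp apart. The run is shown because it lies between the annotated spans, on the plus strand and thus towards MRPS11, and no motif is marked in it. The main transcript of MRPS11 starts past its end, at 89010939. AAGATGGC, the core of YY1 described below, was found in the wider start region of MRPL46 but not within this run.
MRPL46 to MRPS11: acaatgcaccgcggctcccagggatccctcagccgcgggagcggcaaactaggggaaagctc

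**Figure D3:**
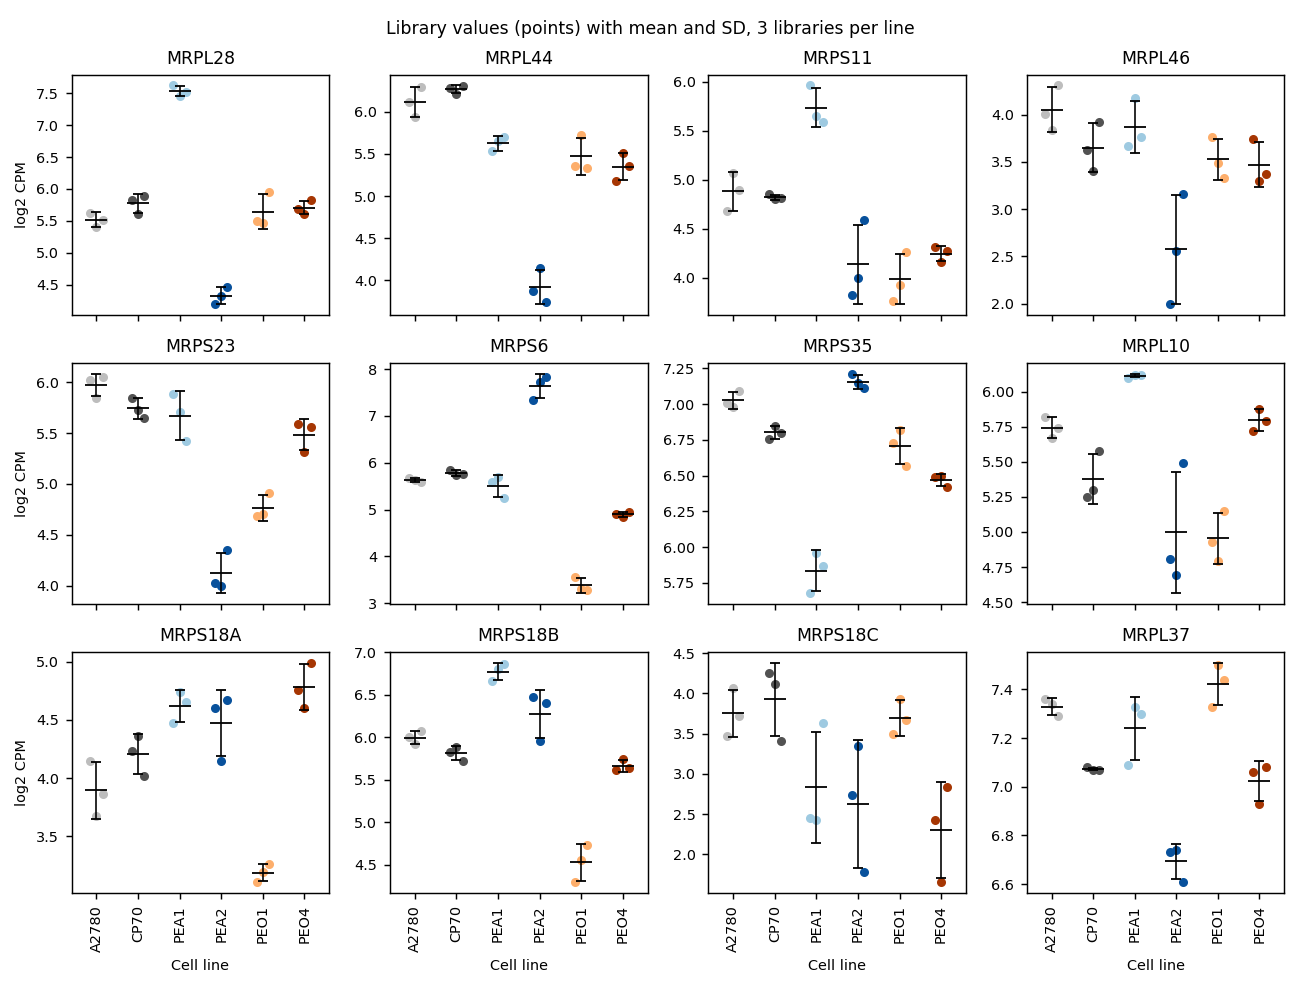
Log2 CPM (vertical axis, a separate scale in each panel) of 12 genes in the 6 lines (horizontal axis). Points are the 3 libraries of a line, and the bar and whiskers are their mean and SD. MRPL28 spans 7.53 in PEA1 to 4.33 in PEA2, and the 3 libraries of PEO1 lie below those of PEO4 for MRPS6, MRPS18A, MRPS18B, MRPS23 and MRPL10.

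Between PEO1 and PEO4, 10 genes rose in PEO4, led by MRPS18A, MRPS6, MRPL14 and MRPS18B, and 16 fell, led by MRPS18C, MRPS26 and MRPL54. Of all genes, 19.6% rose and 21.9% fell, beside 13.9% and 22.2% of the family. The median log2FC was -0.10, beside -0.02 for all genes. No gene of the family passed an absolute log2FC of 2 with the FDR, as 6.22% of all genes did, and the values ran from -1.39 to 1.60.

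The MRPS18 genes are 3 paralogues of 1 bacterial small subunit protein. MRPS18C takes the bacterial position, MRPS18B stands elsewhere in the small subunit and MRPS18A in the large subunit. In this pair all 3 changed, 2 upward and 1 downward. MRPS18A was at 3.11, 3.19 and 3.26 in PEO1 and at 4.76, 4.60 and 4.99 in PEO4. By its mean, PEO1 was its lowest line and PEO4 its highest, and the 2 lines did not overlap (log2FC 1.60 ± 0.19, FDR = 1.45e-06, limma). MRPS18B was at 4.30, 4.55 and 4.73 in PEO1 and at 5.61, 5.74 and 5.64 in PEO4, a rise of 1.14 ± 0.13 (FDR = 9.24e-07, limma), and every other line lay above PEO1. MRPS18C was at 3.49, 3.93 and 3.67 in PEO1 and at 2.42, 1.66 and 2.83 in PEO4, a fall of 1.39 with an SE of 0.40 (FDR = 0.00890, limma). The MRPS18C libraries of PEO4 held between 9 and 17 reads, and without PEO4 replicate 2 the log2FC was -1.07 (FDR = 0.0614, limma). In the PEA pair MRPS18B fell by 0.50, and MRPS18A and MRPS18C had values of -0.15 and -0.21 that did not pass the test. The 3 genes have 1, 2 and 3 named pseudogenes in the annotation (MRPS18A, MRPS18B and MRPS18C), whose reads the counting could confuse with theirs.

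MRPS18A and MRPS18B lie on chromosome 6, as do MRPL14, at the face where the subunits join, and MRPL2, near the site of peptide bond formation, and all 4 rose in PEO4. MRPL14 went from 4.07, 4.12 and 4.41 to 5.45, 5.14 and 5.46 (log2FC 1.15 ± 0.20, FDR = 0.000118, limma), and MRPL2 rose by 0.81 ± 0.20 (FDR = 0.00222, limma). No line had a lower mean of MRPL14 than PEO1, and the other 5 line means lay between 5.21 and 5.35. The other 2 genes of the family on the chromosome, MRPS10 and MRPL18, had no change that passed the test. The 100 bases before the annotated starts of 3 of the 4 genes are shown, read towards the gene on GRCh37, because these genes rose together. They lie at chr6:43655529-43655628 (minus strand, MRPS18A), chr6:30585517-30585616 (plus strand, MRPS18B) and chr6:44095190-44095289 (minus strand, MRPL14). Capitals mark the core CCGGAAG of ETS-family factors in MRPS18A and the core GCATGCGC of NRF1, a factor known for driving nuclear genes of mitochondria, in MRPS18B. No core was found in the run of MRPL14.
MRPS18A: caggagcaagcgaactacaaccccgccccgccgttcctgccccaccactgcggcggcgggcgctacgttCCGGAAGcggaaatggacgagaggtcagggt
MRPS18B: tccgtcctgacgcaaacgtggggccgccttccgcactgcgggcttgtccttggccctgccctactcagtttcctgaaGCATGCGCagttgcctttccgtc
MRPL14: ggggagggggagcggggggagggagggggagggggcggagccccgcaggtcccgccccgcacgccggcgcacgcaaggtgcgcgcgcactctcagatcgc

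MRPS6 rose in PEO4 as it did in PEA2, from 3.57, 3.30 and 3.28 to 4.90, 4.85 and 4.96 (log2FC 1.52 ± 0.14, FDR = 4.57e-08, limma). PEO1 was its lowest line by a wide margin, and PEO4 stayed below the A2780, CP70, PEA1 and PEA2 means. MRPS26, a small subunit protein without a bacterial counterpart, fell from 4.96, 5.44 and 5.27 to 3.98, 3.99 and 4.0 (-1.24 ± 0.22, FDR = 0.000143, limma). MRPL47, which stands near the tunnel exit, fell from 6.38, 6.25 and 6.22 to 5.43, 5.14 and 5.18 (-1.03 ± 0.15, FDR = 1.12e-05, limma). MRPS33 fell by 0.90 and MRPL54 by 1.13, and the call for MRPL54 was lost without PEO1 replicate 3 (FDR = 0.0828, limma) or PEO4 replicate 2 (0.0629). Without PEO4 replicate 2, 11 genes of the family fell.

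The stalk of the large subunit receives the translation factors, and MRPL10, MRPL11 and MRPL12 form it. MRPL10 was at 6.10, 6.12 and 6.12 in PEA1 and at 4.81, 4.69 and 5.49 in PEA2 (log2FC -1.12 ± 0.16, FDR = 7.61e-06, limma). In the PEO pair it went the other way, from 4.93, 4.79 and 5.15 to 5.72, 5.88 and 5.79 (0.84 ± 0.16, FDR = 0.000354, limma). MRPL12 fell by 0.52 in PEA2 (FDR = 0.00940, limma), a call that was lost when the pair was fitted alone (FDR = 0.0862, limma) or with voom weights (0.0896), and its values elsewhere were 0.17 and 0.20. MRPL11 passed in no pair, with values of -0.14, 0.06 and 0.29.

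**Figure D4:**
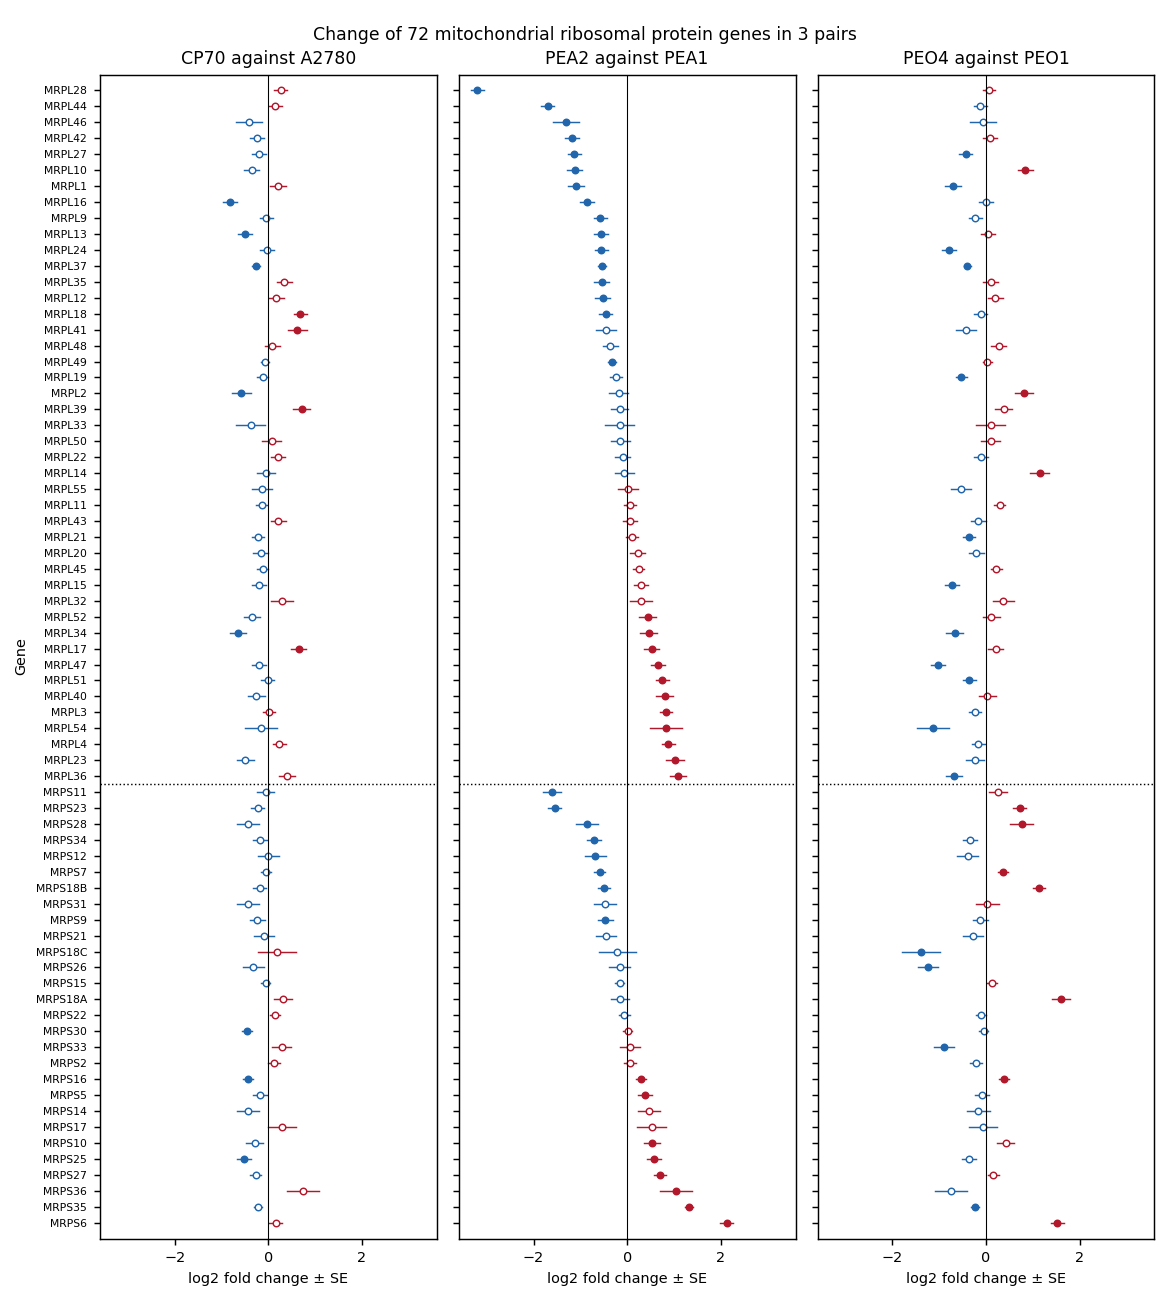
Log2FC of each of the 72 genes (rows, MRPL above the dotted line and MRPS below, ordered within each by the PEA pair) in the 3 pairs, resistant minus sensitive. Points are estimates and lines 1 SE, red above 0 and blue below, filled where the FDR is below 0.05. The values spread from -3.20 to 2.13 in the PEA pair and from -0.82 to 0.74 in the A2780 pair.

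Few changes were shared between pairs. Of the 72 genes, 17 changed in no pair, 32 in 1 pair, 20 in 2 pairs and 3 in all 3 pairs, the last being MRPL34, MRPL37 and MRPS16. Of all genes, 15.7% changed in no pair and 12.7% in all 3. MRPL37 was the 1 gene of the family that fell in all 3 resistant lines, and none rose in all 3. It is a large subunit protein without a bacterial counterpart. Its libraries were at 7.36, 7.34 and 7.29 in A2780 and 7.08, 7.07 and 7.07 in CP70, at 7.09, 7.33 and 7.30 in PEA1 and 6.73, 6.74 and 6.61 in PEA2, and at 7.33, 7.50 and 7.44 in PEO1 and 7.06, 6.93 and 7.08 in PEO4. The lines of each pair did not overlap, and the differences were small, at -0.26 ± 0.08, -0.54 ± 0.08 and -0.40 ± 0.08 (FDR = 0.0185, 1.32e-05 and 0.000691, limma). In the A2780 pair the call was lost without A2780 replicate 1 (FDR = 0.0523, limma) or CP70 replicate 2 (0.0521). MRPL34 and MRPS16 changed in all pairs but not in 1 direction. MRPS16, a small subunit protein of bacterial descent, fell by 0.43 in CP70 and rose by 0.30 in PEA2 and 0.39 in PEO4.

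Between the PEA and PEO pairs, 17 genes changed in both, 6 in the same direction and 11 in opposite directions. The matching counts over all genes were not made, so this split is a description of the family only. MRPL1, MRPL24, MRPL27 and MRPL37 fell in both, and MRPS6 and MRPS16 rose in both. MRPS23 was 1 of those that crossed: it fell in PEA2 and rose by 0.72 in PEO4, from 4.68, 4.70 and 4.91 to 5.59, 5.31 and 5.56. MRPS35, MRPL47, MRPL36, MRPL51, MRPL54 and MRPL34 rose in PEA2 and fell in PEO4, and MRPL10, MRPS7, MRPS18B and MRPS28 fell in PEA2 and rose in PEO4. In all, 15 of the 72 genes changed in opposite directions in some pair of comparisons, beside 27.5% of all genes. Over the 72 genes, Spearman's rho of the PEA log2FC was 0.04 with that of CP70 and -0.17 with that of PEO4, and rho was -0.08 for CP70 with PEO4. These describe genes, which are not independent replicates, and the 3 pairs share no library.

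The difference of the log2FC between pairs was tested for every gene. It passed for 37 of the 72 genes between the PEA and A2780 pairs (57.5% of all genes), for 27 between the PEO and A2780 pairs (47.5% of all genes) and for 38 between the PEO and PEA pairs (58.7% of all genes). As shares of the family these are 51.4%, 37.5% and 52.8%. The linear model over all pairs, with pair and sensitivity as terms, gave 2 genes higher in the resistant lines, MRPS6 and MRPL17, where 12.5% of all genes were higher. It gave 10 genes lower, where 11.6% of all genes were lower: MRPL1, MRPL13, MRPL16, MRPL19, MRPL24, MRPL27, MRPL37, MRPL46, MRPS26 and MRPS34. This model treats libraries of 1 line as independent. With the 3 pair differences as the replicates, limma called 0 of the 72 genes, and MRPS6 was the 1 gene at an unadjusted p under 0.05. The lowest FDR of a gene of the family was then 0.980 (limma).

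The genes were also grouped by place in the ribosome and by descent. Of 8 genes of the central protuberance, 2 rose and 4 fell in PEA2, with MRPL40 at 0.80 and MRPL46 at -1.30 as the extremes. Of 8 genes around the exit tunnel, 3 rose and 2 fell in PEA2, from MRPL23 at 1.03 to MRPL44 at -1.70, and 2 fell in PEO4, MRPL47 and MRPL24. MRPL1, of the stalk where spent tRNA leaves, fell by 1.09 in PEA2 and by 0.71 in PEO4. Of the 45 genes with a bacterial homologue, 11 rose and 17 fell in PEA2, and 9 rose and 10 fell in PEO4. Of the 27 with none listed, 8 rose and 7 fell in PEA2, and 1 rose and 6 fell in PEO4. In PEO4, 3 of 44 MRPL genes rose and 12 fell, while 7 of 28 MRPS genes rose and 4 fell. For all genes of the table, 32.5% rose and 29.4% fell in PEA2, and 19.6% rose and 21.9% fell in PEO4. The splits of the family were not tested against each other or against these shares.

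In the PEA and PEO pairs, the genes of the family moved with the genes around them on the chromosome. For each gene, the median log2FC of the other tested genes within 1 Mb on either side was taken where there were at least 5 of them outside the family, as there were for 66 genes on GRCh37. Spearman's rho between a gene and that median was 0.79 for the PEA pair, 0.65 for the PEO pair and 0.05 for the A2780 pair. Over all 11155 genes with at least 5 tested neighbours, here with the family's genes left in, it was 0.46, 0.39 and 0.20. Those genes include ones of low level, and no value at a matched level was made. Genes that share neighbours share that median, so these are descriptions. Of the family's genes that changed and had neighbours, 36 of 42 had the sign of their neighbours in PEA2, 21 of 25 in PEO4 and 8 of 11 in CP70. The shares of all changed genes that did were 74.3%, 71.8% and 59.8%. DNA copy number was not analysed here.

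MRPL28 lies near the end of the short arm of chromosome 16 (chr16:416969-421289). Of 36 neighbours, 30 also fell in PEA2 and 1 rose, with a median log2FC of -2.22. MRPS23 on chromosome 17 had 11 of 15 neighbours lower in PEA2 (median -0.85) and 12 of 15 higher in PEO4 (0.90), and its own change turned with them. The annotation placed 5 genes of the family on chromosome 17: MRPL10, MRPL12, MRPL27, MRPS23 and MRPS7. All 5 fell in PEA2, and 3 of them rose and 1 fell in PEO4. MRPL45 and MRPS21 were not matched to the annotation and are not counted by chromosome. In PEA2 neither passed the test (log2FC 0.25 and -0.45). On chromosome 6 in PEO4, 29 of 34 neighbours of MRPS18A rose and 0 fell (median 0.96), as did 18 of 22 around MRPL14 (0.97), 25 of 31 around MRPL2 (0.83) and 25 of 38 around MRPS18B (0.97), where 3 fell. The windows of MRPS18A, MRPL14 and MRPL2 overlap, so these counts share genes. Around MRPS10 on the same chromosome, 21 of 27 rose in PEO4 and 0 fell (0.87), while its own log2FC of 0.42 did not pass the test. Around MRPS26 on chromosome 20, 21 of 25 fell in PEO4 (median -1.01), and around MRPS36 on chromosome 5, 11 of 13 rose in PEA2 (1.60). MRPS6 on chromosome 21 moved further than its surroundings, with a median of 0.32 over 15 neighbours in PEA2, where 6 rose and 1 fell, and 0.62 in PEO4, where 6 rose and 0 fell. MRPL1 and MRPL16 had the opposite sign to theirs in PEA2, at -1.09 beside a median of 0.26 and at -0.86 beside 0.31, each over 8 neighbours. With a window of 2 Mb the median around MRPL1 was -0.03. In CP70, MRPL44 had a log2FC of 0.15 that did not pass the test, while its 7 neighbours had a median of 2.31.

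**Figure D5:**
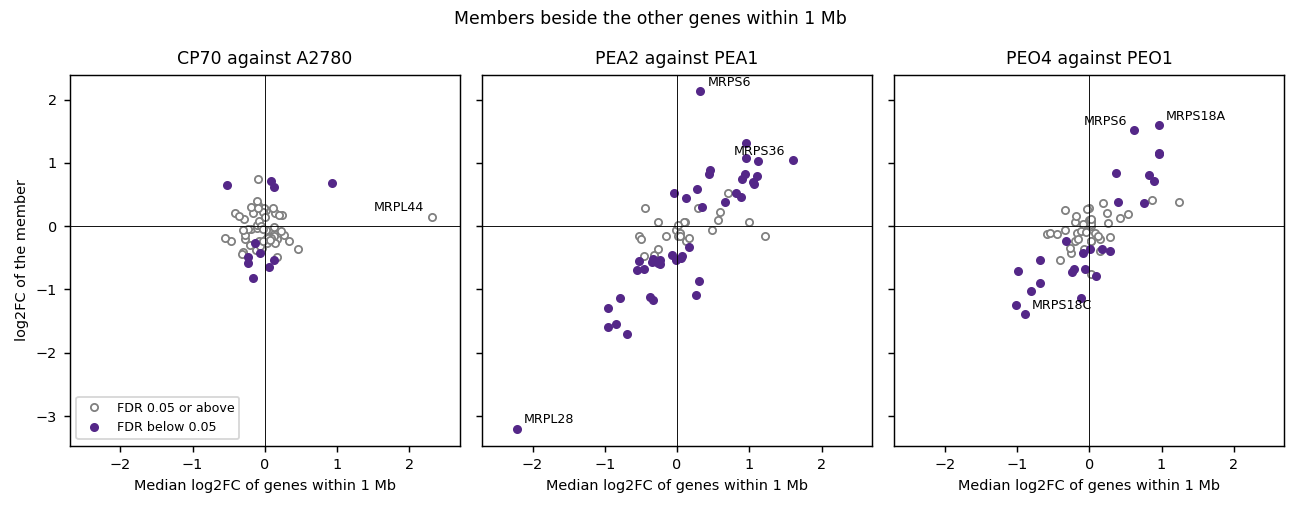
Log2FC of each gene of the family (vertical axis) against the median log2FC of the other tested genes within 1 Mb of it (horizontal axis) in the 3 pairs, resistant minus sensitive. Each point is 1 of 66 genes with at least 5 such neighbours, filled where its FDR is below 0.05. The points follow a rising line in the PEA pair (rho 0.79) and the PEO pair (rho 0.65), with MRPL28 at the lower left of the PEA pair, and not in the A2780 pair (rho 0.05).

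Genes of the family often share a start region with a gene on the opposite strand. Of the 70 genes matched to the annotation, 24 (34.3%) had a protein-coding gene starting in the other direction within 1000 bp, beside 11.9% of all matched genes. The partner was in the table for 19 of them. MRPL46 and MRPS11 are partners of each other and count from both sides here. Both genes changed in 11 cases in PEA2, 10 of them in 1 direction. The same held for 6 of 6 such cases in PEO4 and 3 of 3 in CP70. Over all 1242 genes of the table with a tested partner, both changed in 488, 213 and 168 cases in PEA2, PEO4 and CP70, and 89.1%, 96.7% and 85.1% of these were in 1 direction. MRPL47 and NDUFB5, a subunit gene of respiratory complex I whose start lies 156 bp away, both rose in PEA2 (0.66 and 1.22) and both fell in PEO4 (-1.03 and -0.80). MRPL14 and TMEM63B both rose in PEO4 (1.15 and 1.08), and MRPL18 and TCP1, a chaperonin subunit gene, both rose in CP70 (0.68 and 1.07). The exception was MRPL49, which fell by 0.33 in PEA2 while FAU, a cytosolic ribosomal protein gene, rose by 0.36. Other genes lay over a gene of the family on the opposite strand in 34 cases and on the same strand in 14, and 31 genes of the family have named pseudogenes, so single values may hold reads of other origin. A strand-specific kit was used, and whether the counting used strand is not given in the sources used here.

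The start regions of the family, from 250 bases before to 50 bases after the start, were searched on both strands for 3 short cores, and the letters were chosen after sequences of the family had been seen. The core AAGATGGC of YY1, which binds at many genes for mitochondrial and ribosomal proteins, was found for 19 of 70 genes (27.1%) and in 5.86% of all 12543 regions. CCGGAAG was found for 27 genes (38.6%, beside 18.6%) and GCATGCGC for 7 (10%, beside 5.47%). The end of CCGGAAG and the start of AAGATGGC share the letters AAG, so that 1 run can hold both cores. At least 1 core was found in 40 of the 70 regions. A match is a description of these letters only.

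The other genes needed to make and run the mitochondrial ribosome also moved in both directions. Of 57 such genes, 2 rose and 15 fell in CP70, 14 rose and 24 fell in PEA2, and 7 rose and 8 fell in PEO4. All genes of the table that changed, in either direction, were 39.9%, 61.9% and 41.5%, beside 29.8%, 66.7% and 26.3% of these. By direction, 22.2% of all genes rose and 17.7% fell in CP70, 32.5% and 29.4% in PEA2, and 19.6% and 21.9% in PEO4. Of 7 ribosomal subunits known by other names, 3 rose and 3 fell in PEA2: GADD45GIP1 by 0.98, AURKAIP1 by 0.54 and CHCHD1 by 0.53 upward, and DAP3 by 0.85, ICT1 by 0.56 and PTCD3 by 0.53 downward. The call of CHCHD1 was lost without A2780 replicate 1 (FDR = 0.0506, limma) and without most other libraries, and that of ICT1 without PEA1 replicate 1 (0.0698). MRP63, the remaining one, had values of 0.15, -0.01 and 0.04. PTCD3 also fell by 0.31 in CP70 and rose by 0.36 in PEO4, and DAP3 rose by 0.23 in CP70, calls that did not hold without several single libraries.

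Of 16 translation factors, 1 rose and 7 fell in CP70, 4 rose and 5 fell in PEA2, and 1 rose and 2 fell in PEO4. TUFM, the elongation factor that brings aminoacyl-tRNA, had a log2FC of 1.79 in PEA2 (FDR = 4.30e-12, limma) and of -0.12 and 0.02 in CP70 and PEO4. GFM1, the elongation factor that moves the ribosome along, fell by 0.79 in CP70 and by 0.81 in PEO4 and rose by 0.46 in PEA2. MTRF1L, a release factor, had the largest change of the list in CP70 (1.42, FDR = 0.00188, limma). Of 22 assembly factors, 1 rose and 12 fell in PEA2, 0 rose and 3 fell in CP70, and 3 rose and 3 fell in PEO4. Beside both lists, 32.5% of all genes rose and 29.4% fell in PEA2, 22.2% and 17.7% in CP70, and 19.6% and 21.9% in PEO4. The median of the assembly factors in PEA2 was -0.51, with RNMTL1, a methyltransferase of the large ribosomal RNA, lowest at -1.47. TFB1M, which methylates the small ribosomal RNA, fell by 1.04 in PEA2 and rose by 1.07 in PEO4, the latter lost without PEO1 replicate 1 (FDR = 0.0711, limma) or PEO4 replicate 1 (0.0513).

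Of 5 genes for transcription of mitochondrial DNA, which makes the ribosomal RNA, 2 fell in CP70, 2 rose and 2 fell in PEA2, and 2 fell in PEO4. TFAM, which packs and transcribes mitochondrial DNA, had a log2FC of -1.52 in CP70 (FDR = 5.70e-12, limma), and TFB2M, its transcription partner, of -1.32 there and -1.43 in PEO4. POLRMT, the polymerase, rose by 0.76 in PEA2, a call lost without PEA1 replicate 2 (FDR = 0.189, limma) or PEA2 replicate 2 (0.308). Of 7 nuclear regulators, 0 rose and 2 fell in CP70, 4 rose and 2 fell in PEA2, and 2 rose and 1 fell in PEO4. The shares of all genes that rose and fell were 22.2% and 17.7% in CP70, 32.5% and 29.4% in PEA2, and 19.6% and 21.9% in PEO4. GABPA, the DNA-binding part of an ETS-family factor, fell by 0.69 in CP70 and rose by 1.24 in PEA2 and by 1.10 in PEO4. GABPB1, the partner subunit of that factor, fell by 0.44 in PEA2 and by 0.97 in PEO4, the opposite direction to GABPA, and had a value of 0.14 in CP70. ESRRA, a nuclear receptor known for mitochondrial genes, rose by 1.87 in PEA2, NRF1 by 0.81, and YY1 fell by 0.42 there and by 0.31 in CP70. The 13 messages of mitochondrial DNA were not analysed here.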

How the data were processed

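RNA-seq of 18 libraries was used, 3 of each of 6 lines. The processing notes of the authors name hg19, Bowtie2, featureCounts and limma, and the deposited values are log2 CPM per gene with 0.5 reads added. Whole reads were recovered from 100% of the values (tolerance 0.01 reads). The number of sample columns left unused was 0.

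These values were used as deposited, on their log2 scale. The test was that of limma 3.58.1 (R 4.3.3), fitted to the 18 libraries together with a coefficient for each line and a trend of variance on mean, and Benjamini-Hochberg adjustment over 12853 genes. Calls were made at an FDR below 0.05 and separately at an absolute log2FC above 2. The calculations were run on simulated data, with independent normal values and changes put into a small part of the genes, all of higher level. That setting differs from these data and does not cover genes with few reads, and its outcome is not given here. The members and lists were chosen with earlier results of these data known. Genes described in full were the 5 highest and 5 lowest called genes of each pair whose lines do not overlap, those past an absolute log2FC of 2 or called in 1 direction in all pairs, the extremes of range and of level per length, the MRPS18 and stalk genes, and in other lists the largest change per pair and all subunits. Genes named as sharing neighbours, partners or opposite directions, and further genes of the other lists, were chosen after their values were seen.

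Gene positions, overlaps and sequence came from GRCh37 with GENCODE, which matched 12543 gene identifiers, including 70 of the 72, and did not match 310 (MRPL45 and MRPS21 among them). The alternatives were each pair fitted alone, a filter, other scalings, 2 reads added, a replicate block, no variance trend, voom weights, other thresholds, the 3 pair differences as replicates and leaving out each library. Neighbour windows of 0.5 and 2 Mb were added after seeing the data. The sample titles give replicate numbers and do not say whether these pair the libraries. Within each pair of lines, the deviations from the line mean correlated between -0.06 and 0.08 for libraries with 1 number. Libraries with different numbers were not compared.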

Additional observations from a re-analysis of the deposited data

Results flagged for a closer look

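The changes of 15 genes went in opposite directions in 2 pairs, and the size of the difference between those changes is given here. The genes were chosen by those opposite changes, so a test of the difference adds no support to them. Between the PEO and PEA pairs the difference of the log2FC was 2.27 ± 0.20 (SE) for MRPS23, 1.95 ± 0.23 for MRPL10, 1.64 ± 0.19 for MRPS18B, 1.62 ± 0.33 for MRPS28 and 0.96 ± 0.16 for MRPS7. It was -1.13 ± 0.26 for MRPL34, -1.76 ± 0.24 for MRPL36, -1.69 ± 0.21 for MRPL47, -1.11 ± 0.19 for MRPL51, -1.96 ± 0.49 for MRPL54 and -1.56 ± 0.13 for MRPS35. The first 5 fell in PEA2 and rose in PEO4, and the other 6 did the reverse. Between the PEA and A2780 pairs the difference was 1.11 ± 0.26 for MRPL34, 0.73 ± 0.16 for MRPS16, 1.10 ± 0.21 for MRPS25 and -1.14 ± 0.20 for MRPL18. Between the PEO and A2780 pairs it was 0.82 ± 0.16 for MRPS16 and 1.39 ± 0.28 for MRPL2. MRPL54, whose PEA1 libraries held 5, 10 and 15 reads, had the widest error of these. Groups of 3 libraries were not tested for single outlying libraries.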

How the results depend on the processing

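Of 121 single-gene results, 74 passed the threshold and 57 of these kept it under every alternative that was run. Of 3371 values under alternatives, 3261 stayed on their side of the threshold, 83 lost it, 27 gained it and 0 called values changed direction. Leaving out a library of another pair cannot move the log2FC within a pair, only its error. Many of these results were also chosen for large or opposite changes in the same data. The counts are therefore a description and no measure of reliability. The counts of genes of the family depended most on the call rule. At an absolute log2FC above 1 they were 0 higher and 0 lower in the A2780 pair, 5 and 9 for PEA2, and 4 and 4 for PEO4. At an FDR below 0.01 they were 5 lower in the A2780 pair, 12 higher in the PEA pair, 4 lower in the linear model and 17 for the difference of the PEO and A2780 pairs, and 11 and 8 genes of the other lists changed in the A2780 and PEO pairs. Shares of all genes were not counted under these or the other alternatives below, apart from the pair differences. The counts thus show only how calls in the family and the other lists moved with the rule. Fitted alone, the A2780 pair gave 8 higher and 14 lower, and voom weights gave 14 lower. Quantile normalization left 1 gene past an absolute log2FC of 2 in the PEA pair, with MRPS6 at 1.98, and gave 1 for PEO4, MRPS18C at -2.02. With the 3 pair differences as replicates, the linear model called 0 higher and 0 lower, as it called 0 of all genes. Centring on library medians moved the median of the PEA pair to -0.26. The cause of these shifts was not tested, apart from what each rule or replicate unit removes by construction.

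Leaving out 1 library gave 3 to 5 genes higher and 5 to 11 lower in the A2780 pair, 14 to 19 and 21 to 25 for PEA2 (14 without PEA2 replicate 2), and 9 to 11 and 11 to 17 for PEO4. Past an absolute log2FC of 2 there were 0 in the A2780 and PEO pairs and 1 to 2 in the PEA pair. The linear model gave 2 to 3 higher and 6 to 12 lower (6 without PEA1 replicate 1, and 3 higher without any of 6 libraries, PEA1 replicate 2 among them), the differences between pairs 32 to 37, 19 to 28 and 36 to 39, and the other lists 11 to 18, 35 to 40 and 12 to 16 (11 without CP70 replicate 2). The medians ran from -0.19 to -0.07, from -0.15 to -0.04 and from -0.11 to -0.04 in the A2780, PEA and PEO pairs.

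The replicate block lost 0 and gained 0 of the calls among the 121 single-gene results. In the counts over the family it gave 4 higher and 8 lower in the A2780 pair, 19 and 24 for PEA2, 10 and 16 for PEO4, 2 and 8 in the linear model, and 35, 24 and 38 for the differences between pairs. The rho with neighbours was 0.77 and 0.72 with windows of 0.5 Mb and 0.73 and 0.56 with 2 Mb in the PEA and PEO pairs, and 0.00 with both in the A2780 pair. A count test on the recovered reads had been planned and was not run, because the file holds log2 values. Depth limits MRPS36, MRPS17, MRPS18C, MRPL54 and MRPL46, which had under 10 reads in some libraries.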
